A study of Mus musculus with 12 samples.

Results

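The mouse genes described here encode enzymes that oxidise, reduce or hydrolyse drugs and body chemicals without cytochrome P450. They are 45 of the 26228 gene symbols on the arrays: 11 carboxylesterases, 4 alcohol dehydrogenases, 13 aldehyde dehydrogenases, 4 flavin monooxygenases, 5 aldo-keto and carbonyl reductases, 5 molybdenum and amine oxidases and 3 paraoxonases. They were chosen by symbol and enzyme family, and every spot carrying one of the symbols was taken, which gave 64 spots. All 45 genes passed the filter on dim spots in every comparison.

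RNA from female B6C3F1/Nctr mice was measured on 12 Agilent 1-colour arrays, in a study titled for epigenetic effects of acrylamide, a small reactive industrial and dietary chemical. The groups were liver with acrylamide at 0.7 mM, untreated liver, lung with acrylamide at 0.7 mM and untreated lung, with 3 arrays each. All groups share the strain and sex. The controls are described as matched for age, but the labels give neither the age nor how or for how long acrylamide was given. They also do not say whether the 3 arrays of a group are 3 animals, so the p-values speak only for the spread among these arrays, which could be technical. Arrays are named by tissue, treatment and title number.

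Most of these enzymes act on small reactive groups. Carboxylesterases and paraoxonases split esters and lactones, alcohol and aldehyde dehydrogenases carry alcohols through aldehydes to acids, flavin monooxygenases add oxygen to nitrogen and sulfur, and reductases and oxidases work on carbonyls, purines and amines. Liver is known for high levels of many of them, and lung for its own set in airway epithelium, alveolar cells and mesothelium.

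A level is log2 intensity minus the array's own 75th percentile of log2 intensity, and levels are compared only within a gene, because spots differ in brightness for the same amount of RNA. That percentile lay between 294.5 and 621.5 intensity units in liver and between 839.4 and 1376 in lung. Liver acrylamide 30 stood apart, with 55.6% of spots above background, against 75.3% to 82.9% on the other 11 arrays. The tissue entry says liver for all 12 arrays, but the median level of 12 hepatocyte genes was 8.14 to 8.98 on arrays titled liver and -0.30 to 0.73 on arrays titled lung. The median level of 10 alveolar type 2 genes was -4.87 to -0.81 on arrays titled liver and 6.12 to 6.44 on arrays titled lung. The titles were therefore used. The titles open with the number 19 on all liver arrays and 18 on all lung arrays, and the labels do not say what this number stands for, so tissue and whatever it marks cannot be told apart. In bulk tissue, fewer cells of a type and less RNA per cell cannot be told apart either.

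Between untreated tissues, 41 of the 45 genes differed, 31 of them higher in liver and 10 higher in lung (limma, adjusted p under 0.05). Of all 23300 genes tested, 73.3% were called in this comparison, 42.9% higher and 30.5% lower in liver. The sizes were large: 28 genes were called at least 1 log2 unit higher in liver, against 32.9% of all genes, and 9 at least 1 log2 unit lower, against 23.1%. At least 5 log2 units higher in liver were 12 of the 45 genes, or 26.7%, against 3.08% of all genes. The median difference was 2.29 log2 units over the 45 genes and 0.34 over all genes, and that shift of all genes became 0.00 with quantile scaling. Quantile scaling also turned the split of all called genes to 7990 higher and 8280 lower in liver, against 9988 and 7102 with the 75th percentile, while it left 29 of the 45 called higher and 12 called lower.

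**Figure D1:**
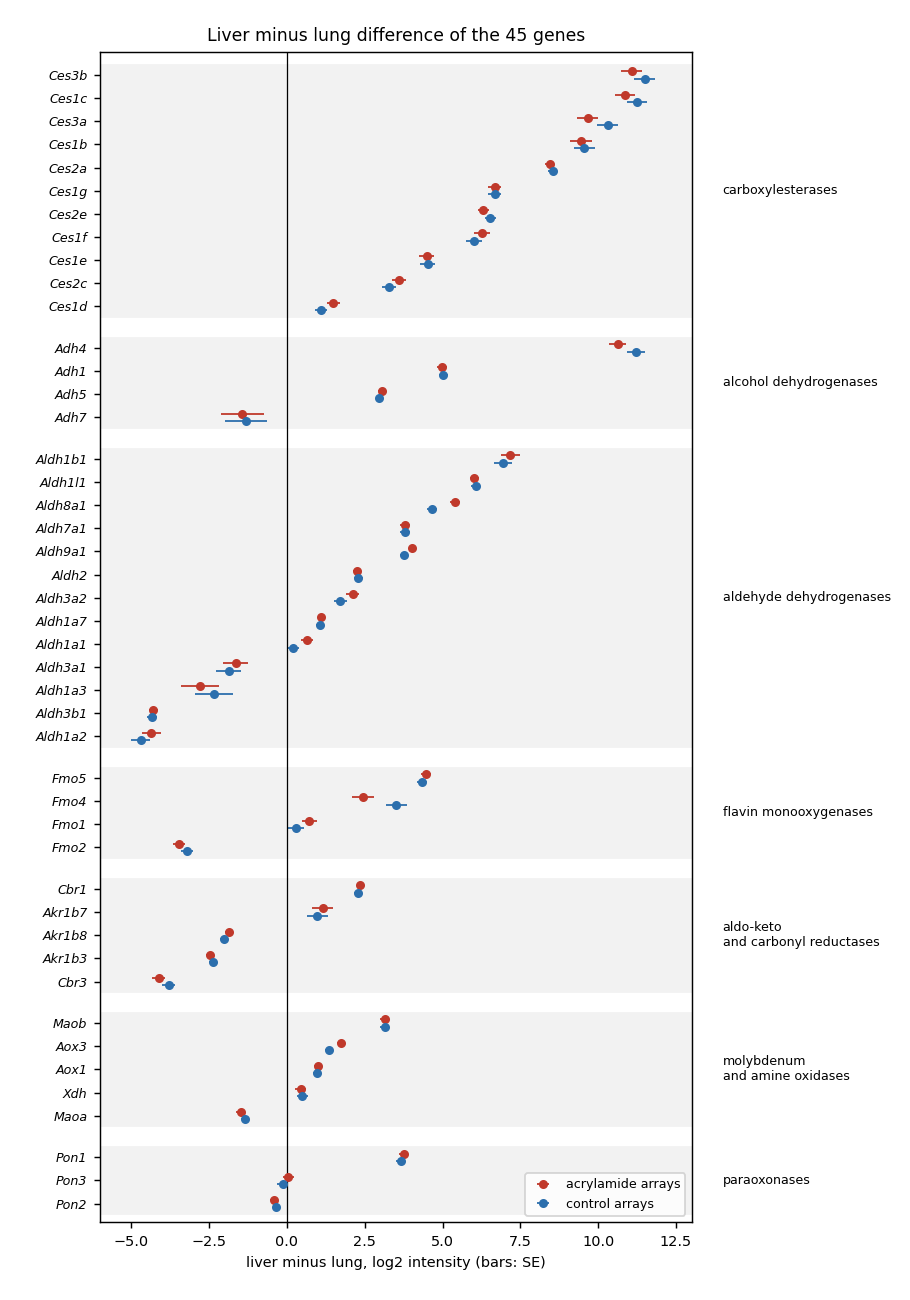
Liver minus lung difference of each of the 45 genes, in log2 intensity, on acrylamide arrays and on control arrays, grouped by enzyme family; points are limma estimates and bars their standard errors (3 arrays per group). All 11 carboxylesterases lie to the right of 0 and the 2 sets of arrays lie close together, with the widest gap, 1.07 log2 units, at Fmo4.

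The carboxylesterases were the family with the highest median difference, 6.67 log2 units, and all 11 were called higher in liver. Ces3b stood at 5.35, 4.88 and 5.27 in control liver and at -6.18, -7.01 and -5.77 in control lung, a 2870-fold difference (11.49 ± 0.34 log2 units, SE; adjusted p = 9.9e-10). Ces1c, which encodes an esterase secreted into mouse plasma, stood at 7.50, 7.37 and 7.59 in control liver and at -3.88, -4.17 and -3.19 in control lung (11.24 ± 0.33, SE; adjusted p = 8.7e-10). Ces3a stood at 8.46, 8.39 and 8.59 in control liver and at -2.13, -2.30 and -1.02 in control lung (10.30 ± 0.34, SE). In each of the 3 genes the liver arrays lay within 0.5 log2 units of each other and the tissues were far from overlapping.

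Ces1b stood at 5.49, 5.32 and 5.54 in control liver and at -3.75, -4.00 and -4.56 in control lung (9.55 ± 0.34, SE). Ces2a stood at 3.59, 3.46 and 3.60 in control liver and at -4.91, -5.25 and -4.82 in control lung (8.54 ± 0.14, SE; adjusted p = 7.9e-11), the lowest adjusted p among the 45 genes. Ces1g, whose product hydrolyses lipid esters in liver, stood at 4.30, 4.44 and 4.65 in control liver and at -2.52, -1.75 and -2.35 in control lung (6.67 ± 0.20, SE). The rest were spread widely, from Ces2e at 6.53 and Ces1f at 6.01 through Ces1e at 4.52, the anchor of beta-glucuronidase in the endoplasmic reticulum, and Ces2c at 3.29 log2 units, to Ces1d, which was 2.15-fold higher. Ces1d encodes the triacylglycerol hydrolase also known from adipose tissue, and its level in control lung was 4.27, 4.12 and 4.11, against 5.32, 4.90 and 5.59 in control liver. The Ces1d call was lost with quantile scaling, at 0.43 log2 units (adjusted p = 0.109).

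The Ces1 genes lie side by side on chromosome 8 and have unlike tissue ratios, so the promoters available were set beside them. RefSeq (GRCm38.p6) gave a promoter window, 250 bases before to 50 after the start, for 4 of the 6 Ces1 genes. No window was used for Ces1f or for Ces1d, the Ces1 gene with the smallest liver excess, so Ces1d could not be compared. All 4 windows hold TTATGTAA, the D-box letters bound by Dbp and related clock output factors. Both strands of every window were searched. The letters occurred in these 4 of the 34 windows used for the 45 genes (11.8%) and in 0.938% of 32851 windows of all genes. The 4 genes are related copies, so the windows are not independent. The stretches around the match are shown because they differ in how much else they share, with the D-box letters in capitals.
Ces1b, chr8:93079992-93080049, minus strand: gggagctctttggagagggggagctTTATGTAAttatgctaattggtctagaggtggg
Ces1c, chr8:93131345-93131402, minus strand: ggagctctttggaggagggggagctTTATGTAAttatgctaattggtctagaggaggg
Ces1e, chr8:93229668-93229725, minus strand: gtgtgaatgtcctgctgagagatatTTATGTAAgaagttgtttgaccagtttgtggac
Ces1g, chr8:93337409-93337459, minus strand: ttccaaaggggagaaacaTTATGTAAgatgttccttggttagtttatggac
With the capitals aligned, the Ces1b and Ces1c stretches matched at 48 of 58 bases, the Ces1e and Ces1g stretches at 30 of 51, and Ces1c and Ces1e at 21 of 58. The match began 84, 94 and 81 bases before the annotated start in Ces1b, Ces1c and Ces1e and 232 bases before it in Ces1g. It is a match of letters only, and binding was not measured. The level of Dbp itself was 3.18, 2.37 and 2.32 on liver acrylamide arrays, against 0.17, 0.41 and 0.26 on liver controls, and did not pass the test (2.34 ± 0.26 log2 units, SE; limma adjusted p = 0.491). In lung Dbp stood at 2.47, 2.63 and 2.90 on acrylamide arrays and at 2.10, 0.61 and 0.60 on controls (1.56 ± 0.43, SE; adjusted p = 0.959). Dbp belongs to a list of 13 clock output genes. The list's median level in liver was 0.21, 0.31 and -0.26 on acrylamide arrays and -0.38, 0.16 and 0.26 on controls. In lung that median was lower with acrylamide, at -0.48, -0.79 and -0.78, against 0.04, 0.27 and 0.38. Its summed level was 6.15 to 6.45 on lung acrylamide arrays and 5.62 to 6.33 on controls. The acrylamide differences of the 4 Ces1 genes in liver were 0.21, 0.10, 0.02 and 0.15 log2 units in the order printed, none of which passed the test.

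The 4 alcohol dehydrogenases lie in a cluster on chromosome 3, and 3 of them were called higher in liver. Adh4, a class II enzyme acting on retinol and longer alcohols, stood at 5.42, 5.38 and 5.45 in control liver and at -6.20, -5.79 and -5.38 in control lung, a 2360-fold difference (11.21 ± 0.28 log2 units, SE; adjusted p = 4.0e-10). Its neighbour Adh5, the formaldehyde-detoxifying class III enzyme, was 7.77-fold higher in liver, at 2.96 ± 0.11 log2 units (SE). Adh1, the main ethanol enzyme of liver, was 32.7-fold higher there. Adh7, the retinol-oxidising enzyme of upper gut and airway lining, stood at -3.97, -3.49 and -3.76 in control liver and at -1.21, -2.22 and -3.82 in control lung, and the groups overlapped (-1.32 ± 0.68 log2 units, SE; adjusted p = 0.101). Lung control 6 set that result: without it the difference was -2.03 log2 units (adjusted p = 0.0136).

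Among the 13 aldehyde dehydrogenases, 8 were called higher in liver and 4 higher in lung. Aldh1b1, a mitochondrial enzyme for acetaldehyde, stood at 3.18, 2.94 and 3.24 in control liver and at -3.35, -3.71 and -4.41 in control lung (6.94 ± 0.30, SE; adjusted p = 1.2e-08). Aldh1l1, which oxidises 10-formyltetrahydrofolate, was 6.06 log2 units higher in liver, and Aldh8a1 of tryptophan breakdown was 4.65 higher. Aldh7a1 of lysine breakdown and Aldh9a1 of carnitine synthesis were 3.80 and 3.75 log2 units higher in liver. Aldh2, the mitochondrial enzyme that clears acetaldehyde after ethanol, was 4.88-fold higher in liver, and Aldh1a7, a close relative of Aldh1a1, was 2.06-fold higher.

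The lung-high aldehyde dehydrogenases included 2 of the 3 enzymes that make retinoic acid. Aldh1a2, the mesothelial and mesenchymal one, stood at -3.37, -3.66 and -3.17 in control liver and at 0.77, 1.05 and 2.06 in control lung, 25.9-fold higher in lung (-4.70 ± 0.31 log2 units, SE; adjusted p = 2.6e-07). Aldh1a3 stood at -5.18, -4.57 and -7.50 in control liver, the last below the background limit, and at -3.38, -3.08 and -3.78 in control lung (-2.34 ± 0.62, SE; adjusted p = 0.00606). Without liver control 4, the array below the limit, the difference was -1.46 and still passed the test. Aldh1a1 stood at 6.97, 6.56 and 7.17 in control liver and at 6.88, 6.77 and 6.44 in control lung, and did not pass the test at 0.20 ± 0.19 log2 units (SE; adjusted p = 0.362). That sign is set by the scaling, since quantile scaling gave -0.59 (adjusted p = 0.028) and median scaling -0.00. Aldh1a2 and Aldh1a3 kept their direction under each scaling.

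Aldh3b1, which clears aldehydes from lipids, stood at 0.43, 0.49 and 0.59 in control liver and at 4.98, 5.01 and 4.50 in control lung, 20.1-fold higher in lung (-4.33 ± 0.15 log2 units, SE; adjusted p = 2.7e-09). Aldh3a1, known from cornea and airway, stood at 1.26, 0.66 and 1.16 in control liver and at 3.54, 3.12 and 2.03 in control lung (-1.87 ± 0.40, SE; adjusted p = 0.0016). Its neighbour on chromosome 11, Aldh3a2, the fatty aldehyde enzyme, ran the other way, 3.29-fold higher in liver (1.72 ± 0.21, SE; adjusted p = 3.2e-05).

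Of the 4 flavin monooxygenases, 2 were called higher in liver and 1 higher in lung. Fmo2, known as the form of lung, stood at -0.08, 0.42 and -0.20 in control liver and at 3.50, 2.85 and 3.41 in control lung, 9.22-fold higher in lung (-3.21 ± 0.20, SE; adjusted p = 2.0e-07). Fmo5 was 20.3-fold and Fmo4 11.5-fold higher in liver, where Fmo4 was dim, at -3.94, -4.09 and -4.54. Fmo1, between Fmo4 and Fmo2 on chromosome 1, stood at 3.45, 3.30 and 3.36 in control liver and at 2.91, 2.76 and 3.54 in control lung, with overlap (0.30 ± 0.25, SE; adjusted p = 0.3). Quantile scaling gave -0.14 for Fmo1, so its sign was not fixed either.

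In the aldo-keto and carbonyl reductases, the sharpest contrast was between 2 neighbours. Cbr1, a broad carbonyl reductase, stood at 4.51, 4.37 and 4.59 in control liver and at 2.21, 2.29 and 2.17 in control lung, 4.81-fold higher in liver (2.27 ± 0.10, SE; adjusted p = 1.3e-08). Cbr3, the next gene along chromosome 16, stood at -0.44, -0.34 and 0.31 in control liver and at 3.74, 3.83 and 3.35 in control lung, 13.8-fold higher in lung (-3.79 ± 0.21, SE; adjusted p = 7.4e-08). Neither gene's groups overlapped. Akr1b3, aldose reductase, stood at 1.66, 1.93 and 1.82 in control liver and at 3.92, 4.21 and 4.39 in control lung (-2.37 ± 0.14, SE), and its neighbour Akr1b8 was likewise higher in lung, by 4.09-fold. Akr1b7 was 0.97 log2 units higher in liver (adjusted p = 0.0257), a call lost with median scaling, at 0.77 (adjusted p = 0.0787), and without any of 3 single control arrays.

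The promoter windows of the Cbr pair (RefSeq, GRCm38.p6) are shown because the neighbours ran in opposite directions, with each CpG pair in capitals; Cbr3 has 19 and Cbr1 has 11.
Cbr3, chr16:93682969-93683268, plus strand: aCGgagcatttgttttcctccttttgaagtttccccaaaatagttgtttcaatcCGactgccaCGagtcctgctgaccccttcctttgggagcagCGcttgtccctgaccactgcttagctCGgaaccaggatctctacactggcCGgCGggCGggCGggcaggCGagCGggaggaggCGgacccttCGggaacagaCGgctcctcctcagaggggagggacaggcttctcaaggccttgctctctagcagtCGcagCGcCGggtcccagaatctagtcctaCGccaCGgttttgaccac
Cbr1, chr16:93607587-93607886, plus strand: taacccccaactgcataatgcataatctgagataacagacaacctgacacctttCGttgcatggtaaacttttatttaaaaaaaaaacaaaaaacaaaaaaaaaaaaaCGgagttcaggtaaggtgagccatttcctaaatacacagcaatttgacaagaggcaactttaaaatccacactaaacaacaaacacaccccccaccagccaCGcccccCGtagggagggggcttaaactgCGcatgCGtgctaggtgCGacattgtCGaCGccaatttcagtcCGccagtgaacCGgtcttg

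Of the oxidases, Maob, which breaks down phenethylamine and dopamine, was 8.81-fold higher in liver, and its neighbour on the X chromosome, Maoa, which prefers serotonin and noradrenaline, was 2.55-fold higher in lung. Maoa stood at -2.27, -1.91 and -2.25 in control liver and at -0.80, -0.73 and -0.85 in control lung (-1.35 ± 0.14 log2 units, SE; adjusted p = 8.6e-06). The aldehyde oxidases Aox1 and Aox3 were 0.97 and 1.34 log2 units higher in liver. Xdh, which makes uric acid, was 0.50 higher (adjusted p = 0.0278), its arrays overlapped, and the call was lost with quantile or median scaling and without any of 4 single control arrays (adjusted p = 0.0689 to 0.106).

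Pon1, secreted by liver onto high-density lipoprotein, stood at 7.75, 7.76 and 7.95 in control liver and at 4.10, 4.38 and 3.99 in control lung, 12.7-fold higher in liver (3.66 ± 0.14, SE; adjusted p = 6.3e-09). Pon2, an intracellular lactonase, was 1.27-fold higher in lung (-0.35 ± 0.11, SE; adjusted p = 0.0149), a call lost without liver control 1, at -0.26 (adjusted p = 0.0561). That is its brightest spot, and the dimmer Pon2 spots showed wider gaps. A dimmer spot stood at -3.08, -2.27 and -2.91 in control liver and at -0.95, -0.90 and -0.80 in control lung. A further spot stood at -2.55, -1.83 and -1.71 in control liver and at -1.02, -1.53 and -1.14 in control lung. Tissue differences were not tested at these spots. Pon3, between them on chromosome 6, stood at 3.28, 3.21 and 3.32 in control liver and at 3.40, 3.41 and 3.43 in control lung (-0.14 ± 0.18, SE; adjusted p = 0.488). Pon3 passed the test with quantile scaling, at -0.62 log2 units (adjusted p = 0.00797). The windows of the outer pair (RefSeq, GRCm38.p6) are shown because they differ widely in CpG pairs, with 31 in Pon2 and 3 in Pon1, in capitals.
Pon2, chr6:5298291-5298590, minus strand: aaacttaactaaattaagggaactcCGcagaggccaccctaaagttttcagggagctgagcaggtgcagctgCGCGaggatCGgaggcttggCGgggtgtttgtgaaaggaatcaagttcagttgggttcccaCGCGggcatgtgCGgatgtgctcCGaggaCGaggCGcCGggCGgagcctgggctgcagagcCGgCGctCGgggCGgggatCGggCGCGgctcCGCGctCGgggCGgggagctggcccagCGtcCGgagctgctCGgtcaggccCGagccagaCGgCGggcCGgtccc
Pon1, chr6:5193897-5194196, minus strand: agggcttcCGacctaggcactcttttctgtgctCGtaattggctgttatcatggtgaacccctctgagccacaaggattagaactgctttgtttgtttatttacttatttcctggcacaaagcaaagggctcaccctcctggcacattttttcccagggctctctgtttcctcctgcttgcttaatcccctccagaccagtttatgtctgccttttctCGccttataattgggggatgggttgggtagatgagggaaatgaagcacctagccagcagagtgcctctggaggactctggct

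Among the 34 genes with a window, CpG pairs were fewer in those called higher in liver than in the 7 called higher in lung. At least 10 CpG pairs were held by 4 of 24 windows of liver-high genes (16.7%), 5 of 7 windows of lung-high genes (71.4%) and 43.5% of all windows. Where a gene had several windows, as 4 genes did, the one with the lowest coordinate was counted. Adh5 had 3 pairs in that window and 26 in its other, which would make it 5 of the 24 liver-high genes. The carboxylesterase windows held 0 to 4 pairs, and Aldh1a2 held the most, 50. The carboxylesterases are related copies, so their windows are not independent. Among the few lung-high windows, Akr1b8 lay at the cut of 10, and the Pon2 call was lost without liver control 1. Fmo2 and Aldh3b1 were the lung-high genes under 10, with 5 and 6. The antioxidant response element letters TGACNNNGC, searched on both strands, were in 4 of 34 windows (11.8%) and in 12.4% of all. The HNF4 letters CAAAGTCCA were in none and in 0.475% of all, and the HNF1 half-site letters GTTAAT were in 3 (8.82%) and in 7.1% of all. These are descriptions of 1 short window per gene.

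**Figure D2:**
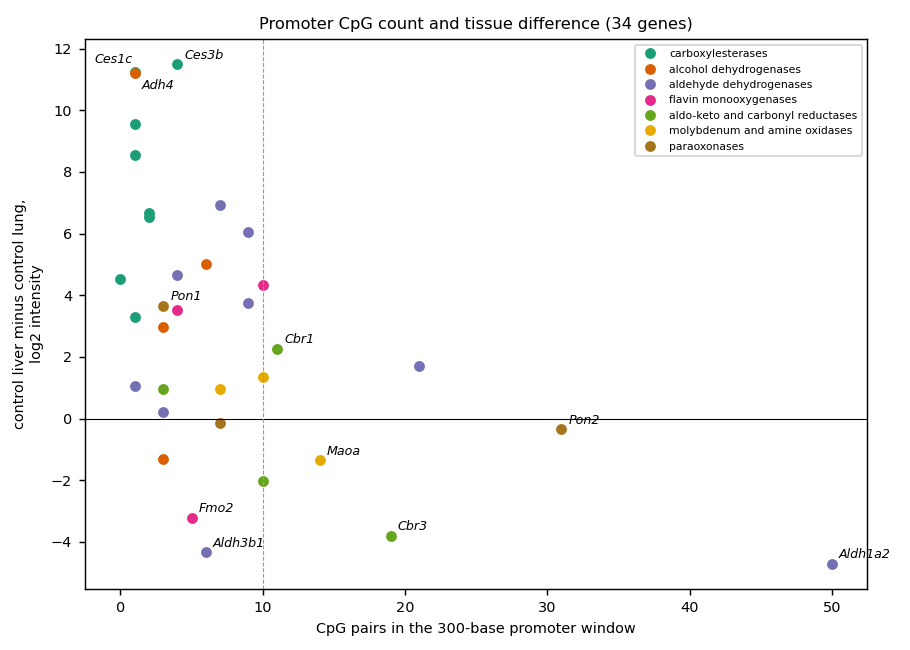
Number of CpG pairs in the 300-base promoter window against the control liver minus control lung difference in log2 intensity, for the 34 genes with a window, coloured by family; the dashed line marks 10 pairs. The carboxylesterases lie at 0 to 4 pairs, all with liver excess, while Aldh1a2 and Cbr3 lie at 50 and 19 pairs with lung excess.

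Of 19 pairs of members that are next to each other in the genome, 3 were called in opposite directions, Cbr1 with Cbr3, Maoa with Maob and Aldh3a1 with Aldh3a2. Probe sequences were not used here, so cross-hybridisation between close relatives, such as the Ces1 genes or Aldh1a1 and Aldh1a7, was not tested.

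The acrylamide arrays were compared between tissues in the same fit of 12 arrays, so both tissue comparisons share its estimate of the spread. Between acrylamide liver and acrylamide lung, 43 of the 45 genes were called, 33 higher in liver and 10 higher in lung, where 74.9% of all genes were called, 44.4% higher and 30.5% lower in liver. The 31 liver-high and 10 lung-high genes of the control arrays were called in the same direction here. Aldh1a1 and Fmo1 were called on acrylamide arrays alone, at 0.65 (adjusted p = 0.0115) and 0.72 log2 units (adjusted p = 0.0257), but the change between the 2 sets of arrays did not pass the test for either, at 0.45 ± 0.27 (SE; adjusted p = 0.994) and 0.41 ± 0.36 (SE; adjusted p = 0.994). With quantile scaling neither passed, at -0.16 for Aldh1a1 (adjusted p = 0.499) and 0.27 for Fmo1 (adjusted p = 0.381), and with median scaling Fmo1 did not, at 0.54 (adjusted p = 0.114). Over the 45 genes, quantile scaling gave 30 called higher and 11 called lower in liver on acrylamide arrays, and median scaling 31 and 10. Among all called genes, quantile scaling turned the split on acrylamide arrays to 7975 higher and 8450 lower in liver, against 10340 and 7117 with the 75th percentile. The opening title number goes with tissue on these arrays too.

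Acrylamide against control in liver gave no call among the 45 genes, and 0.0% of the 21169 genes tested were called (limma, adjusted p under 0.05). The lowest adjusted p among the 45 was 0.784. At unadjusted p under 0.05, 4 of 45 genes passed (8.89%), against 6.04% of all genes. Differences ran from -0.50 to 0.63 log2 units with a median of 0.06, against -0.02 over all genes, and 42 of the 45 lay within 0.5 log2 units of 0. Above 0 were 29 of 45 genes (64.4%), against 46.8% of all genes. The arrays of the 2 groups did not overlap for 8 of 45 genes (17.8%), against 12.2% of all genes. Higher with acrylamide were 6 of the 45 (13.3%), against 5.44% of all genes, and lower were 2 of the 45 (4.44%), against 6.74%.

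Aldh8a1 had the largest difference in liver. It stood at 1.56, 1.52 and 1.25 on acrylamide arrays and at 0.98, 0.52 and 0.94 on controls, 1.55-fold (0.63 ± 0.19 log2 units, SE; limma adjusted p = 0.784). Ces2c, an esterase of liver and gut, stood at 1.98, 2.22 and 2.70 on acrylamide arrays and at 1.71, 1.67 and 1.83 on controls, 1.48-fold (0.56 ± 0.21, SE; adjusted p = 0.784). Its highest value was that of liver acrylamide 30, the array with the fewest spots above background. Aox3, an aldehyde oxidase of mouse liver, stood at 3.04, 3.15 and 2.99 on acrylamide arrays and at 2.91, 2.70 and 2.66 on controls (0.30 ± 0.14, SE; adjusted p = 0.784).

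The other 3 genes higher without overlap were carboxylesterases, and their differences were small. Ces1b stood at 5.63, 5.78 and 5.57 on acrylamide arrays and at 5.49, 5.32 and 5.54 on controls (0.21 ± 0.14, SE; adjusted p = 0.793). Ces2a stood at 3.78, 3.77 and 3.69 on acrylamide arrays and at 3.59, 3.46 and 3.60 on controls (0.19 ± 0.13, SE; adjusted p = 0.789). Ces1f stood at 6.20, 6.31 and 6.25 on acrylamide arrays and at 6.13, 6.09 and 6.18 on controls (0.12 ± 0.12, SE; adjusted p = 0.856). Of the 11 carboxylesterases, 9 had differences above 0, with a median of 0.15 log2 units, and none of the 11 passed the test.

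Below the controls without overlap lay Fmo2 and Maoa. Fmo2 stood at -0.52, -0.35 and -0.49 on liver acrylamide arrays and at -0.08, 0.42 and -0.20 on controls (-0.50 ± 0.20 log2 units, SE; limma adjusted p = 0.784). Maoa stood at -2.60, -2.71 and -2.41 on acrylamide arrays and at -2.27, -1.91 and -2.25 on controls (-0.43 ± 0.17, SE; adjusted p = 0.784). Both are genes with more signal in lung than in liver. Lung-type transcripts were present on liver acrylamide 27 and 29: Sftpc, an alveolar type 2 gene, stood at 2.63, -0.65 and -5.60 on the 3 acrylamide arrays and at -7.45, -5.83 and -6.13 on controls. The dimmer of the 2 Fmo2 spots stood at -2.35, -2.19 and -3.30 on acrylamide 27, 29 and 30 and at -2.67, -2.75 and -2.79 on controls. Acrylamide 30 had the least Sftpc of the 3, but also the fewest spots above background. Acrylamide 29 lay above 27 at this spot, though it had less Sftpc. Some dimmer spots of liver-high genes were also lowest on acrylamide 30, such as Aldh9a1 at 1.55, 1.59 and 0.93. Others were not, such as Maob at 0.465, 0.588 and 0.701. The part of these transcripts in the liver results was not tested.

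At each gene's brightest spot, the rest of the liver values were close between groups. The 4 alcohol dehydrogenases lay between -0.09 and 0.09 log2 units, the 5 reductases between -0.29 and 0.20 and the 3 paraoxonases between -0.11 and 0.20, and none of the 12 passed the test. Among the bright aldehyde and alcohol dehydrogenases of liver, Aldh2 differed by -0.01 ± 0.17, Aldh1l1 by -0.03 ± 0.18, Aldh7a1 by 0.03 ± 0.16 and Adh1 by 0.06 ± 0.15 log2 units (SE). A dimmer Adh1 spot stood at 6.37, 6.56 and 6.31 on acrylamide arrays and at 6.18, 5.72 and 6.17 on controls, without overlap. It gave 0.39 ± 0.19 log2 units (SE; limma adjusted p = 0.745 over all spots), and the dimmest Adh1 spot gave -0.16 ± 0.56 (SE). The other Aldh2 spots gave -0.17 and 0.26. Ces1d at 0.39 ± 0.25, Aldh1a1 at 0.38 ± 0.23 and Ces3b at 0.33 ± 0.18 (SE) overlapped between groups. Fmo4 and Aldh1a3 were dim in liver, with 1 acrylamide array each below the background limit.

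**Figure D3:**
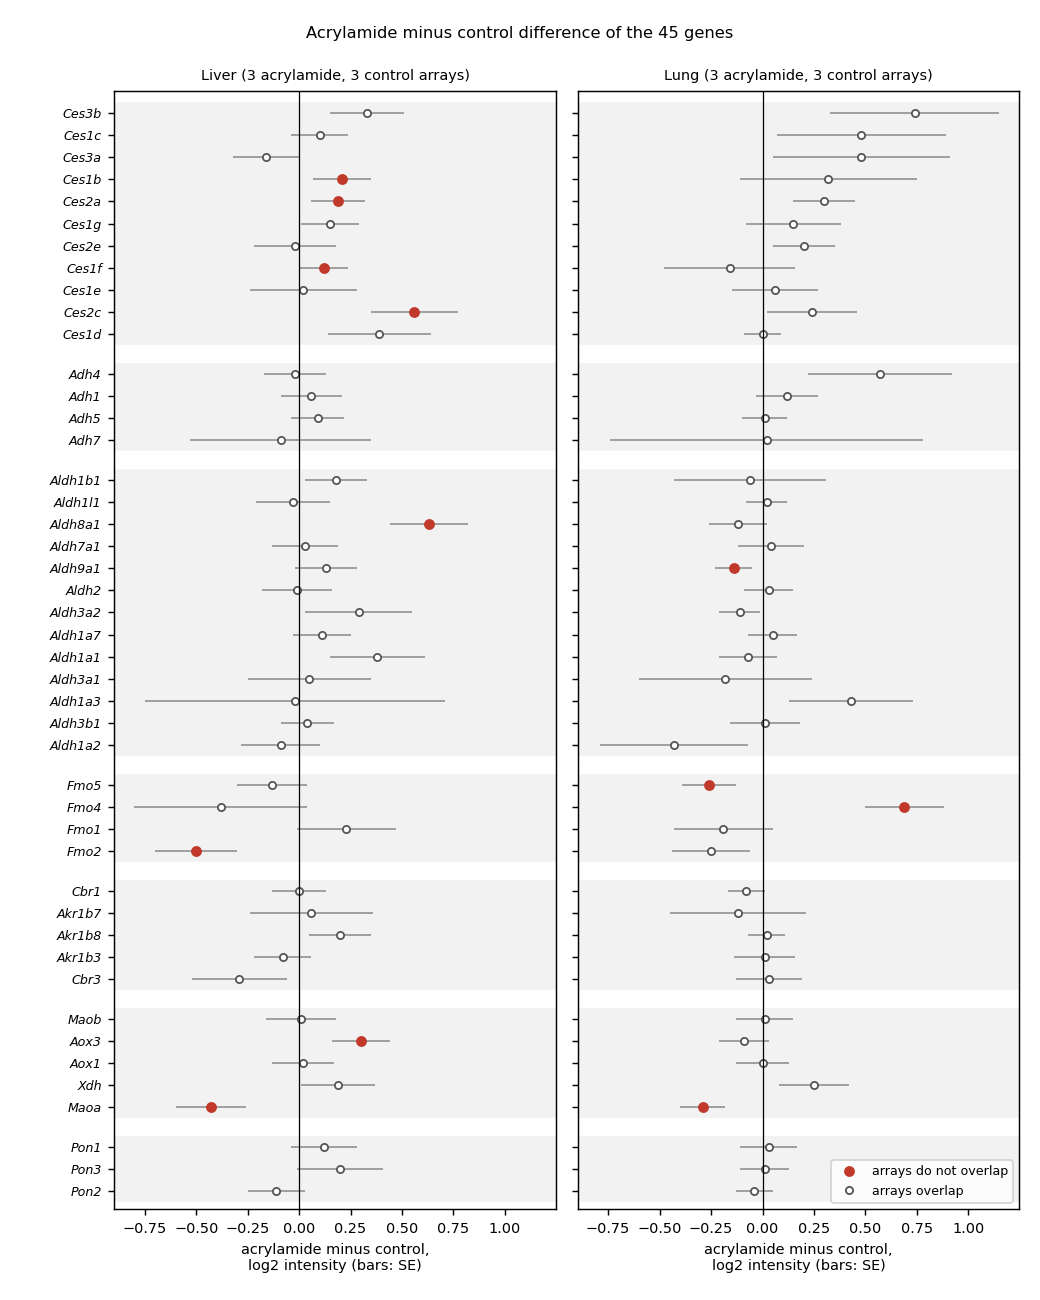
Acrylamide minus control difference of each of the 45 genes in log2 intensity, in liver and in lung, grouped by family; bars are standard errors, filled points mark genes whose 3 acrylamide and 3 control arrays do not overlap. Nearly all points lie within 0.5 log2 units of 0, and Maoa is the single gene filled on the same side in both tissues.

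Several genes have more than 1 spot, and in liver the spots did not always give the same size. Aldh7a1 gave 0.03 ± 0.16 at its brighter spot and 0.70 ± 0.19 at its dimmer one (SE; limma adjusted p = 0.736 over all 47024 spots), and Fmo1 gave 0.23 ± 0.25 and 0.62 ± 0.20 (SE; adjusted p = 0.736). Aldh9a1 gave 0.13 ± 0.15 at the brighter and 0.59 ± 0.32 at the dimmer spot, and the 3 Aldh3a2 spots gave 0.29, 0.45 and 0.62 from bright to dim. In Fmo2 the dimmer spot gave 0.12 ± 0.31, against -0.50 ± 0.20 at the brighter one (SE), so the sign depended on the spot. No spot of any gene was called in liver, and none of 50409 was called in lung.

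In lung, acrylamide against control again gave no call among the 45 genes, and 0.0% of 22252 genes tested were called (limma, adjusted p under 0.05). The lowest adjusted p among the 45 was 0.959. At unadjusted p under 0.05, 2 of 45 genes passed (4.44%), against 4.95% of all genes. Differences ran from -0.43 to 0.74 log2 units with a median of 0.01. Arrays did not overlap for 4 of 45 genes, 1 higher and 3 lower with acrylamide, against 10.9% of all genes, 4.08% higher and 6.85% lower.

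Fmo4 was the gene higher without overlap. It stood at -7.03, -7.33 and -6.69 on acrylamide arrays and at -7.87, -7.65 and -7.61 on controls, 1.62-fold (0.69 ± 0.19 log2 units, SE; limma adjusted p = 0.959). These levels are dim, with background limits between -9.01 and -8.12 on the 6 lung arrays. Maoa stood at -1.05, -0.96 and -1.24 on acrylamide arrays and at -0.80, -0.73 and -0.85 on controls (-0.29 ± 0.11, SE; adjusted p = 0.998). Fmo5 stood at 1.39, 1.16 and 1.33 on acrylamide arrays and at 1.47, 1.44 and 1.74 on controls (-0.26 ± 0.13, SE; adjusted p = 0.998). Aldh9a1 stood at -0.21, -0.14 and -0.24 on acrylamide arrays and at -0.09, -0.01 and -0.06 on controls (-0.14 ± 0.09, SE; adjusted p = 0.998). The Aldh9a1 difference was 0.04 when the gene's spots were averaged.

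Maoa was thus the 1 member lower without overlap in both tissues, at -0.43 in liver and -0.29 in lung. That is 2.22% of the 45 genes, against 0.784% of the 20415 genes tested in both tissues. Its neighbour Maob differed by 0.01 ± 0.17 and 0.01 ± 0.14 log2 units (SE) there at its brighter spot. The dimmer Maob spot gave 0.28 ± 0.14 in liver and 0.02 ± 0.16 in lung (SE). In liver it stood at 0.465, 0.588 and 0.701 on acrylamide arrays and at 0.241, 0.316 and 0.359 on controls, without overlap. Neither Maoa difference passed the test. Maoa had a single spot on the array.

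**Figure D4:**
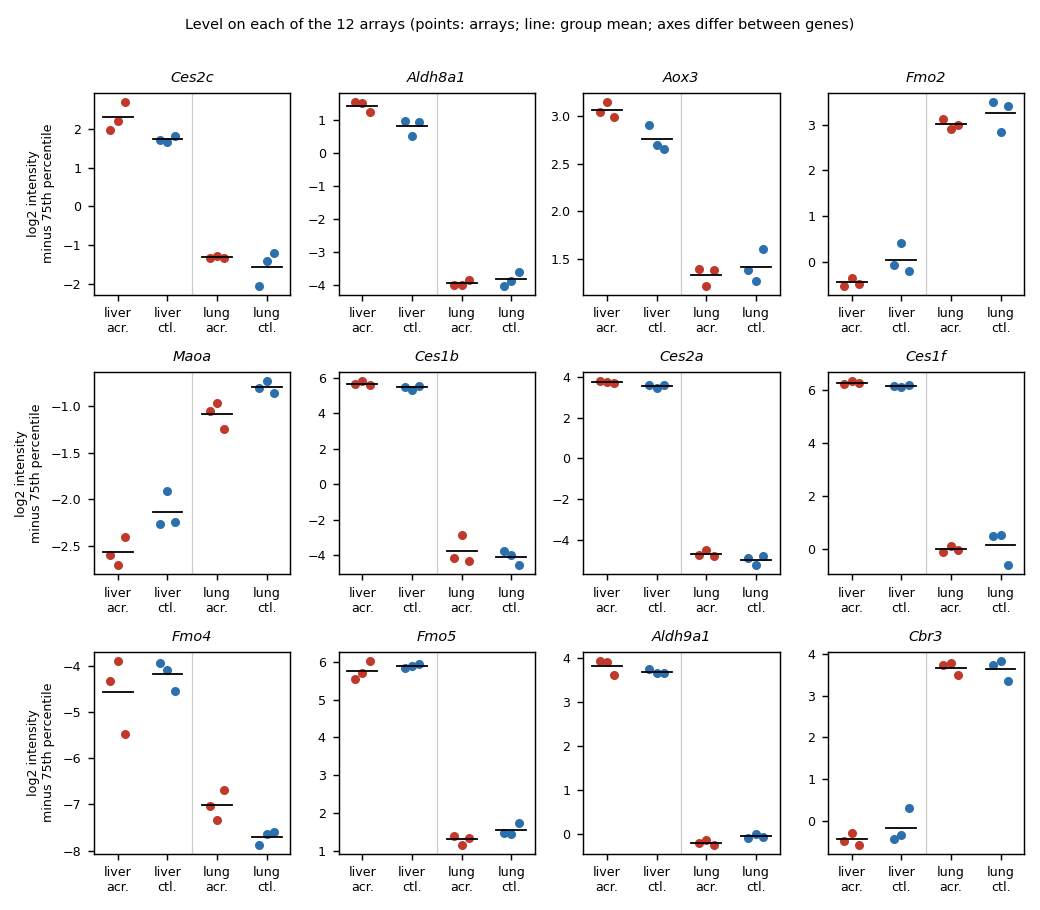
Level of 12 of the genes on each of the 12 arrays, as log2 intensity minus the array's 75th percentile, with liver left and lung right and acrylamide left of control in each; points are arrays and lines are group means. The gap between tissues is wide for most genes and the gap between acrylamide and control is small beside it, for instance in Ces2a and Cbr3.

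The difference between the liver and the lung response was tested directly, and 0 of 45 genes passed, with 0.0% of 23300 genes called (limma interaction, 12 arrays). At unadjusted p under 0.05 it was 1 of 45 genes, against 4.44% of all genes. That gene was Aldh8a1, with a liver minus lung effect of 0.75 ± 0.23 log2 units (SE; adjusted p = 0.994); its lung arrays stood at -4.01, -4.02 and -3.85 with acrylamide and at -4.03, -3.88 and -3.62 in controls. Aox3 followed at 0.39 ± 0.17 (SE; adjusted p = 0.994), with lung levels of 1.39, 1.22 and 1.38 on acrylamide arrays and 1.38, 1.27 and 1.60 on controls. Fmo4, at -1.07 ± 0.50 (SE; adjusted p = 0.994), stood at -4.34, -3.90 and -5.47 on liver acrylamide arrays, the last below background, and at -3.94, -4.09 and -4.54 on liver controls. Aldh9a1, at 0.27 ± 0.16 (SE; adjusted p = 0.994), stood at 3.94, 3.92 and 3.62 on liver acrylamide arrays and at 3.75, 3.67 and 3.66 on liver controls, with overlap. Leaving out liver acrylamide 30 raised the number of genes called in the interaction to 136, with 0 of the 45 among them.

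Within groups, the enzymes had a lower median SD than all genes in liver, a comparison not matched for level. The median SD within groups was 0.18 log2 units over the 45 genes, against 0.29 over all genes in liver, and 0.20 against 0.20 in lung. The tightest were Ces1f and Ces2a in liver and Aldh9a1, Akr1b8, Cbr1 and Pon2 in lung, each with an SD of 0.05 or 0.06. The widest were the dim genes Adh7 in lung and Aldh1a3 in liver, which spanned 2.61 and 2.93 log2 units over the 6 arrays of the tissue. In liver the dim Aldh1a3, Adh7 and Fmo4 had SDs of 1.1, 0.64 and 0.61.

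Some of the genes with a wide spread in lung ranked the lung arrays as markers of other cell types did. These genes were singled out after their values were seen. Adh7 stood at -2.76, -1.37 and -3.06 on acrylamide arrays 28, 29 and 30 and at -1.21, -2.22 and -3.82 on controls 4, 5 and 6. Aldh3a1 stood at 2.63, 3.14 and 2.37 on the acrylamide arrays and at 3.54, 3.12 and 2.03 on the controls. Both were highest on control 4 and lowest on control 6, and the 6 arrays ranked identically. Bpifa1, a secretory gene of the larger airways, stood at 2.82, 5.32 and 1.69 on the acrylamide arrays and at 7.27, 5.79 and -1.31 on the controls, the same order except that control 5 and acrylamide 29 changed places, and Scgb3a1 had the order of Bpifa1. Of other club cell genes, Scgb3a2 was also highest on control 4 and lowest on control 6, over a range of 0.78 log2 units. Scgb1a1 stood at 8.43, 8.12 and 7.90 on the acrylamide arrays and at 8.20, 8.34 and 8.09 on the controls. Scgb1a1 and Cbr2 did not follow, and were highest on acrylamide 28 and lowest on acrylamide 30. The median level of 7 of the 8 club cell genes, all but Aldh1a7, was 7.80, 7.46 and 7.30 on the acrylamide arrays and 7.64, 7.68 and 7.56 on the controls. The summed level of 7 striated muscle genes also ranked the arrays in the order of the 2 enzymes, from 7.17 on control 4 to 4.22 on control 6. Their median level did not, and was highest on acrylamide 29, at 2.89, with control 4 at 2.82 and control 6 lowest at 0.45. The summed level of 7 adipocyte genes was lowest on control 6, at 3.02, but highest on control 5, at 5.27. The median level of 7 ciliated cell genes ran from 2.94 on control 4 to 1.72 on control 6, but their summed level was highest on acrylamide 28. The acrylamide difference was 0.02 ± 0.76 for Adh7 and -0.18 ± 0.42 for Aldh3a1 (SE), with overlap between groups. The sign turned under other settings, to -0.68 for Adh7 without control 6 and to 0.14 for Aldh3a1 without control 4.

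Aldh1a2 ranked the lung arrays in part as mesothelial genes did. It stood at 0.57, 1.15 and 0.86 on lung acrylamide arrays 28, 29 and 30 and at 0.77, 1.05 and 2.06 on controls 4, 5 and 6. Lrrn4, a mesothelial gene, stood at -2.14, -1.08 and -1.40 on the acrylamide arrays and at -1.65, -1.23 and -0.27 on the controls, and ranked the 6 arrays identically. Control 6 was highest and acrylamide 28 lowest for Aldh1a2, Lrrn4, Wt1, Msln and Upk3b, but Wt1, Msln and Upk3b ordered the arrays between otherwise. The summed level of the 7 mesothelial genes was 4.94 to 5.11 on acrylamide arrays and 5.02 to 5.51 on controls. Their median level was highest on control 6, at 1.78, but lowest on control 5, at 0.78, with acrylamide 28 at 0.95. The Aldh1a2 difference was -0.43 ± 0.36 log2 units (SE; limma adjusted p = 0.998).

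Of the 4 most liver-weighted carboxylesterases, Ces3b, Ces1c and Ces3a were high on the same lung arrays as hepatocyte transcripts, and Ces1b was not. Ces3a stood at -1.19, -0.89 and -1.95 on lung acrylamide 28, 29 and 30 and at -2.13, -2.30 and -1.02 on controls 4, 5 and 6. Alb, the albumin gene, stood at 4.22, 4.11 and 3.05 on the acrylamide arrays and at 3.10, 3.10 and 4.21 on the controls. Acrylamide 28 and 29 and control 6 were the 3 high arrays for both, and also for Ces3b, Ces1c and Adh4. Ces1b stood at -4.16, -2.89 and -4.31 on the acrylamide arrays and at -3.75, -4.00 and -4.56 on the controls, with control 6 lowest. The summed level of the 12 hepatocyte genes was 5.55, 5.54 and 4.63 on the acrylamide arrays and 4.59, 4.53 and 5.54 on the controls. High arrays were thus 2 of 3 with acrylamide and 1 of 3 controls, and the largest lung differences among the carboxylesterases were those of Ces3b, at 0.74 ± 0.41, and Ces3a and Ces1c, at 0.48 each. Ces1d, with a high level in lung of its own, ranged over 0.16 log2 units on the same 6 arrays. The part of airway, muscle, adipocyte, mesothelial and hepatocyte transcripts in the lung results was not tested.

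**Figure D5:**
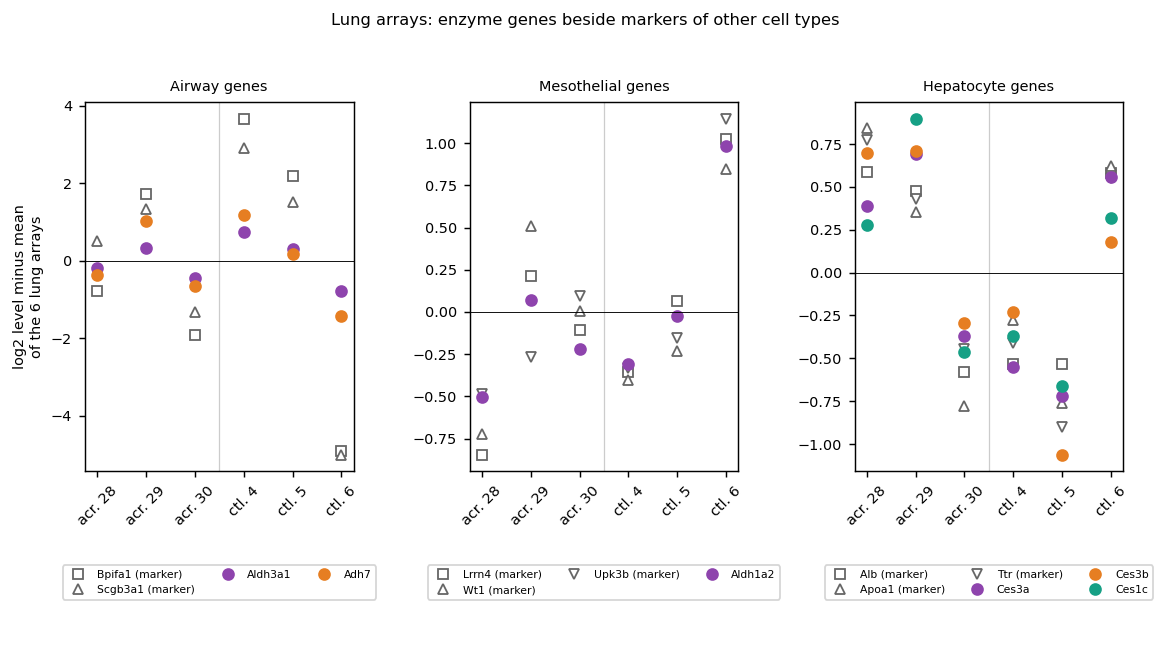
Level of 6 enzyme genes (filled) and of marker genes (open) on the 6 lung arrays, as log2 level minus the gene's mean over these arrays, with acrylamide arrays left of controls. Aldh3a1 and Adh7 move with Bpifa1 and Scgb3a1, Aldh1a2 with Lrrn4, Wt1 and Upk3b, and Ces3a, Ces3b and Ces1c with Alb, Apoa1 and Ttr.

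Of 70 further esterases, dehydrogenases, monooxygenases, reductases and oxidases listed, 62 were tested in liver and 58 in lung, and none was called with acrylamide in either tissue. In control arrays 49 of 62 were called higher in liver, against 42.9% of all genes, and 8 higher in lung, against 30.5%. Arrays did not overlap with acrylamide for 7 of 62 in liver (11.3%, against 12.2% of all genes) and 3 of 58 in lung (5.17%, against 10.9%). Dhrs1, a short-chain reductase, stood at 2.59, 2.82 and 2.49 on liver acrylamide arrays and at 2.12, 1.74 and 2.22 on controls (0.61 ± 0.18 log2 units, SE). Ces2b stood at 1.32, 1.67 and 2.10 on liver acrylamide arrays and at 1.18, 1.06 and 1.21 on controls (0.55 ± 0.22, SE). Akr1c14, a hydroxysteroid reductase, differed by 0.32 ± 0.15 (SE) in liver. Lower without overlap there were the dim Aldh1l2, a mitochondrial relative of Aldh1l1, at -0.73 ± 0.27 (SE), and Ces2f, at -0.24 ± 0.13 (SE). In lung the genes without overlap were Dcxr at 0.27, Smox at -0.14 and Aldh5a1 at -0.11 log2 units.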

How the data were processed

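The deposited array files hold 1 linear intensity for each of 62976 spots on 12 arrays, extracted by the authors with the program Agilent Feature Extraction, version 10.7 per the submitters' processing notes. No source used here states a background subtraction. The authors' series matrix holds the same intensity values times 1 factor per array. From the deposited intensities without 1319 control spots, log2 values were taken and the array's 75th percentile over 61657 spots was subtracted. A spot counted as above background over the 95th percentile of 308 negative control spots. A spot was tested if it passed on 3 or more arrays of the fit, and each gene was represented by its brightest spot. Symbols came through the Entrez number, then the accession, from a RefSeq table of GRCm38.p6.

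Tests used lmFit and eBayes of limma 3.58.1 under R 4.3.3, with Benjamini-Hochberg adjustment over all genes tested. Each tissue had its own acrylamide fit, and tissue and interaction contrasts came from 1 fit of 12 arrays. The number of arrays, 3 per group, limits the precision. The fits were tested on simulated data with each gene's own spread. There the liver acrylamide fit called 2% of 1.5-fold and 24% of 2-fold changes, and the lung fit 10% and 50%. Changes of the sizes listed for acrylamide would therefore mostly be missed. The members and gene lists were chosen with earlier results of these data known. Values on every array are given for the 8 members with the largest difference among those without overlap in each acrylamide comparison, the 4 with the smallest interaction p, the 8 most liver-weighted and the 6 most lung-weighted members, and up to 3 genes of the wider list in each direction. Other members are given by their difference, and with array values where chosen after their values were seen. Marker lists covered hepatocytes, airway, alveolar, mesothelial, muscle and other cells. The club cell list includes Aldh1a7 and the periportal list Aldh1b1. Alternatives were scaling by quantiles or the median, values of the series matrix, 2 background filters, averaging a gene's spots, every spot (added after seeing the data), an intensity trend, array weights, the second number of the title code as a block and within each of its values, 1 fit of 12 arrays, the sample number in the title as a block, and leaving out each array.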

Additional observations from a re-analysis of the deposited data

How the results depend on the processing

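None of the 45 genes was called for acrylamide in liver, in lung or in the interaction under any alternative run that gave a p-value. The liver run within second title number 2 had 1 acrylamide and 1 control array and gave none. The other runs within a second title number had fewer arrays per group than the main fits, so their lack of calls says little. Over all genes, the liver call count was 0 and became 2 in 1 fit of 12 arrays, and 0 to 1 when each array was left out in turn. The interaction count was 0 and became 139 with array weights, and 0 to 136 when each array was left out, the highest without liver acrylamide 30. The median tissue difference of the 45 genes on control arrays was 2.29, and became 1.81 with quantile scaling and 2.62 with a filter on every array. On acrylamide arrays it was 2.35, and became 1.92 and 2.69. Signs that turned were those of small differences. For lung Adh7 it was 0.02, against -0.01 with quantile scaling, -0.02 with median scaling, -0.69 within the arrays whose second title number is 1, and -0.68 (without control 6) to 0.62 when each array was left out, also turning, at -0.49, without acrylamide 29. Lung Aldh9a1 gave 0.04 as a mean of spots. Lung Aldh3a1 was -0.18, against 0.36 within second title number 2 and -0.61 to 0.14 when each array was left out, the highest without control 4. Between control tissues, Aldh1a1 gave -0.59 with quantile and -0.00 with median scaling, and Fmo1 gave -0.14 with quantile scaling. The cause of these changes was not tested. Of the single-gene results, 1373 kept direction and side of the threshold under an alternative, 11 turned, 12 lost and 2 gained a call. The labels do not say whether arrays with the same title number in both tissues come from the same animal. Deviations of same-numbered arrays from their group means correlated at 0.012, -0.021 and -0.156, which in so few pairs cannot settle this. With the number as a replicate block, 41 of the 45 genes were called between control tissues (16875 of all genes). In the same setting 42 were called between acrylamide tissues and 0 in the interaction. Signal over background limits Adh7, Aldh1a3 and Fmo4 most, since each was below the limit on liver acrylamide 30.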
